A study of Mus musculus with 9 samples.

Results

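The AP-1 transcription factor subunits were followed in whole mouse retina under oxygen-induced retinopathy. Members were taken as every probe whose platform gene symbol is Fos, Fosb, Fosl1, Fosl2, Jun, Junb, Jund, Atf3 or Maff. These 9 genes were covered by 14 probes, and 7 of them had a probe bright enough to test, among 10948 genes tested. The groups were 9 C57BL/6N mice, 3 per group, with the 2 retinas of each mouse pooled on 1 Illumina bead array. Mice of the groups labelled hyperoxic and hypoxic were kept with their mothers at 75% oxygen, held within 2%, from postnatal day 7 for 5 days. Hyperoxic retinas were taken at postnatal day 12 (P12) with 0 h of room air, and hypoxic retinas 12 h later (P12.5), after 12 h of room air. Control retinas came from normal P12 mice, so no P12.5 retina without oxygen exposure was compared, and age, hour of collection and return to room air cannot be told apart.

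AP-1 is a dimer of basic leucine zipper proteins that binds short DNA elements. Jun proteins can pair with each other or with Fos proteins, whereas Fos proteins need a Jun partner, and Atf3 and the small Maf protein Maff join related dimers. Many of its genes are immediate early genes, which are switched on by kinases within minutes to hours of a stimulus without new protein synthesis, and in retina they are known to respond to light, injury and loss of blood flow. The members are described in the order of Fos family, Jun family and their ATF and Maf relatives, followed by the kinases, inhibitors, partners and targets around them.

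The arrays set the terms of the comparisons. The labels of the P12 arrays are in doubt, because for 5 arrays (control 2 and 3 and all arrays labelled hyperoxic) the deposited detection p-values followed the intensities of another array than the one beside them. At 100% of probes the deposited expression ratios had a median of 1 over a trio of P12 arrays, control 1 with hyperoxic 2 and 3, and the next best trio reached 42.7%. These 3 are called the reference arrays. The detection p-values beside control 1, 2 and 3 followed control 1, hyperoxic 2 and hyperoxic 3, which is the same trio. Those beside hyperoxic 1, 2 and 3 followed control 2, control 3 and hyperoxic 1. The array labelled hyperoxic 1 stood apart, with a median intensity of 163.6 against 67.4 to 82.3 elsewhere, 30.6% of probes detected against 42.1% to 44.5%, and a mean correlation of 0.961 with the other arrays against 0.985 to 0.988. The comparison of the 3 P12.5 arrays with all 6 P12 arrays does not depend on the doubted labels, and it is given before the comparisons of the labelled groups. Rod markers were bright on every array (Gnat1, rod transducin, at log2 levels of 14.22 to 14.89 and Sag, rod arrestin, at 14.28 to 14.53), as the retina label requires.

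Levels are background-corrected, quantile-normalized log2 intensities, and a probe counts as detected on an array where its deposited detection p-value is under 0.05. A level of 1 probe cannot be set against that of another, so the members are ordered by their changes and not by their levels. Differences are log2 differences ± standard error from limma, with Benjamini-Hochberg adjustment over all 19620 probes tested, and "rose" or "fell" is used where the adjusted p is under 0.05. Fewer cells of a type and less RNA per cell cannot be told apart in whole retina.

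At P12.5 the Fos family members Fosl2 and Fos and the Jun family member Jun rose against the P12 retinas. The log2 difference was 1.17 ± 0.20 for Fosl2 (2.25-fold, n = 3 and 6 arrays), 0.98 ± 0.23 for Fos (1.97-fold) and 0.66 ± 0.13 for Jun (1.58-fold). Thus 3 of the 7 tested members rose and 0 fell, where 1.79% of all probes tested rose and 1.45% fell. At an unadjusted p under 0.05 the counts were 4 higher and 0 lower. In either direction 4066 of all 19620 probes tested had such a p. The median difference over the 7 tested members was 0.41, beside 0.02 over all probes tested, and all 7 lay above 0. In Fosl2, Fos and Jun each of the 3 P12.5 arrays lay above each of the 6 P12 arrays, a pattern found at 6.91% of probes tested, and the other 4 tested members overlapped between the 2 ages. Without hyperoxic 1 the same 3 members rose, where 4.49% of all probes tested did. The count was 0 without any 1 of the 3 hypoxic arrays, where 0.336% to 0.443% of all probes tested rose. It was 1 (Fosl2) without control 1 or hyperoxic 3, where 0.79% and 0.866% of all probes rose. It was 2 without control 2 or control 3 (1.23% and 1.34% of all probes), and 4 without hyperoxic 2 (3.89%). Over all alternatives the call was lost in 5 of 20 for Fosl2, 8 of 21 for Jun and 12 of 21 for Fos, each with its sign kept.

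**Figure D1:**
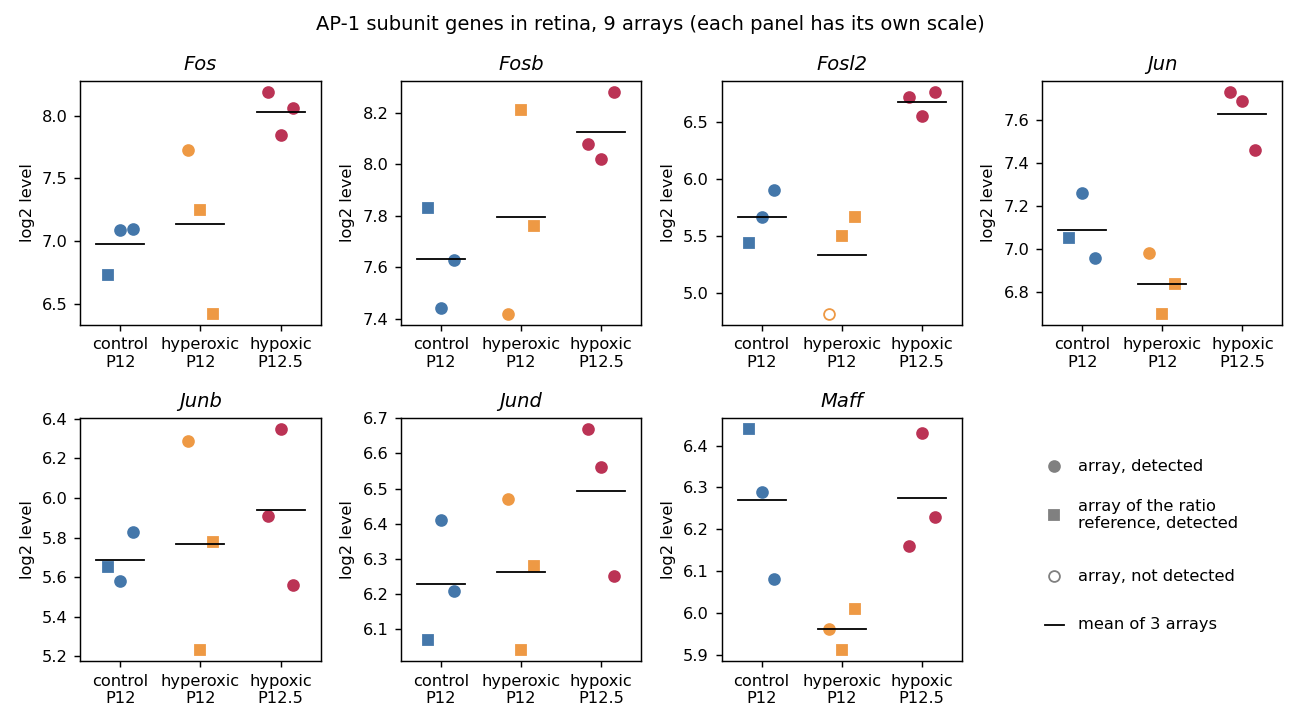
Log2 level (background-corrected, quantile-normalized intensity) of the 7 tested AP-1 subunit genes on each of the 9 arrays, by labelled group, with the mean of the 3 arrays as a bar; squares are the 3 reference arrays of the deposited ratios and the open circle is an array on which the probe was not detected. In the panels of Fosl2, Fos and Jun the 3 hypoxic P12.5 arrays lie above all 6 P12 arrays, and in the other 4 panels the ages overlap.

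Fosl2 encodes Fra-2, a Fos family protein without the strong activation domain of Fos. It lies on chromosome 5 at chr5:32136472-32157840 (RefSeq, GRCm38.p6). Its tested probe read 5.44, 5.67 and 5.90 on the control arrays, 4.82, 5.50 and 5.67 on the hyperoxic arrays, and 6.72, 6.55 and 6.76 on the hypoxic P12.5 arrays. The P12.5 values were thus all above the P12 values, and the lowest was that of hyperoxic 1, on which the probe was not detected (deposited detection p-value 0.241). The deposited intensities were 82.3 to 161.4 at P12 and 155.4 to 180.3 at P12.5, which overlapped before background correction through hyperoxic 1, the array with the bright background. The difference of 1.17 ± 0.20 had an adjusted p of 0.0139 by limma, and without hyperoxic 1 it was 1.04. It was 0.73 when arrays were only centred on their medians, where the call was lost (adjusted p = 0.0701, limma). Fosl2 had 2 further probes, which were not tested. The probe 6520433 was detected on 2 of 9 arrays, control 1 and hypoxic 3, at 4.73 to 5.18 over the arrays, and the probe 1230427 on 0 arrays at 4.32 to 4.47.

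The promoter of Fosl2 is shown because Fosl2 had the largest change among the members tested at P12.5, and because it can be set beside those of Fos and Jun, which rose with it. It spans chr5:32136222-32136521 on the plus strand, 250 bases before to 50 after the start, and is 64.7% G and C, beside a median of 52.7% over the 32817 promoters of the RefSeq table (GRCm38.p6).
Fosl2: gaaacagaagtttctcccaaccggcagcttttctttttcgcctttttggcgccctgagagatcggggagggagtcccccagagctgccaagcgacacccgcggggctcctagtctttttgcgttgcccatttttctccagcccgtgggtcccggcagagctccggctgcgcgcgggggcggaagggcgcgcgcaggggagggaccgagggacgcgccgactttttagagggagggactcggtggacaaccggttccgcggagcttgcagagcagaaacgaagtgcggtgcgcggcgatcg
The promoters were searched on both strands for the TPA response element TGACTCA, the cAMP response element TGACGTCA and its shorter form TGACG, the variant TGACATCA and the core ACGTG of the hypoxia response element, and matches are written in capitals. TGACG lies within TGACGTCA, and matches to each were counted separately. These letters occur in 5.2%, 1.79%, 20.8%, 3.62% and 19.6% of all promoters in that order. None of the 5 was found in this window of Fosl2, which says only that these letters are not in it.

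Fos, the founding Fos family gene and a classic immediate early gene, lies on chromosome 12 at chr12:85473890-85477274. Its level was 6.73, 7.09 and 7.10 on the control arrays, 7.73, 7.25 and 6.42 on the hyperoxic arrays, and 8.19, 7.85 and 8.06 on the hypoxic P12.5 arrays. The P12.5 arrays lay above all others, but by only a small gap to hyperoxic 1, and the hyperoxic arrays spread more (SD 0.66, n = 3) than the control arrays (SD 0.21) or the P12.5 arrays (SD 0.18). The deposited intensities were 134.6 to 328 at P12, the highest being hyperoxic 1, and 301 to 386.9 at P12.5. The difference of 0.98 ± 0.23 had an adjusted p of 0.0479 by limma, close to the threshold, and it was 1.12 without hyperoxic 1. Over the 21 alternatives Fos had differences of 0.74 to 1.13, with limma adjusted p-values of 0.000959 to 0.207.

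The promoter of Fos spans chr12:85473640-85473939 on the plus strand and is 58.7% G and C. The capitals mark TGACG, found 129 and 66 bases before the start.
Fos: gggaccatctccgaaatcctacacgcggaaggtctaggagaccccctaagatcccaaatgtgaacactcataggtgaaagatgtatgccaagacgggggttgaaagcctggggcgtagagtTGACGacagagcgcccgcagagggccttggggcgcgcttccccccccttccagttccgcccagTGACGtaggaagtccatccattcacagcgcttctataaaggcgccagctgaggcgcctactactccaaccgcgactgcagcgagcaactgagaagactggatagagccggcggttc
A match is a description of the letters and not a bound site.

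Fosb is the Fos family member whose protein is known to accumulate in neurons after repeated stimulation. Its tested probe read 7.83, 7.44 and 7.63 on the control arrays, 7.42, 8.21 and 7.76 on the hyperoxic arrays, and 8.08, 8.02 and 8.28 on the P12.5 arrays. Hyperoxic 2 lay among the P12.5 arrays, so the ages overlapped, and the difference of 0.41 ± 0.17 did not pass (adjusted p = 0.185, limma). By the split of the ratios, the 3 reference arrays read 7.76 to 8.21 and the other 3 P12 arrays 7.42 to 7.63. The share of all probes that separate along this split was not counted. A second Fosb probe, 1940142, was detected on 0 arrays, at 4.39 to 4.86. Fosl1, which encodes Fra-1, was also detected on 0 arrays, at 4.49 to 4.69, and was not tested. The lowest levels detected on the arrays other than hyperoxic 1 were 5.00 to 5.10, so the Fosl1 probe bounds its level and does not show that the transcript is absent.

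Jun, the partner of the Fos proteins and the main substrate of the c-Jun N-terminal kinases, lies on chromosome 4 at chr4:95049036-95052222. It read 7.05, 7.26 and 6.96 on the control arrays, 6.98, 6.70 and 6.84 on the hyperoxic arrays, and 7.73, 7.69 and 7.46 on the hypoxic P12.5 arrays. The SD was 0.19 over the 6 P12 arrays and 0.15 over the 3 P12.5 arrays, and the ages did not overlap. They did not overlap in the deposited intensities either, at 156.2 to 249.3 at P12 and 259.6 to 295.7 at P12.5. The difference of 0.66 ± 0.13 had an adjusted p of 0.0259 by limma, and it was 0.67 without hyperoxic 1. Over the alternatives, shown in the plot of differences by setting, the differences of Jun were 0.49 to 0.75 and those of Fosl2 0.67 to 1.25, all above 0.

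The promoter of Jun spans chr4:95052173-95052472 on the minus strand and is 60% G and C. The capitals mark TGACATCA, found 45 bases before the start, which is known as an element that Jun itself can bind.
Jun: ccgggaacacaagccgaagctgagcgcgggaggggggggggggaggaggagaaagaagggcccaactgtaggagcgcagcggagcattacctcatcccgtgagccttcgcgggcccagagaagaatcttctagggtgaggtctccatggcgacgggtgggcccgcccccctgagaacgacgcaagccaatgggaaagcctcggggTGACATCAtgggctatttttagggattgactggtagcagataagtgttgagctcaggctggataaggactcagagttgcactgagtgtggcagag
These letters were not found in the windows of Fos and Fosl2, but a promoter of Maff, which did not rise, also holds them, as do 3.62% of all promoters.

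**Figure D2:**
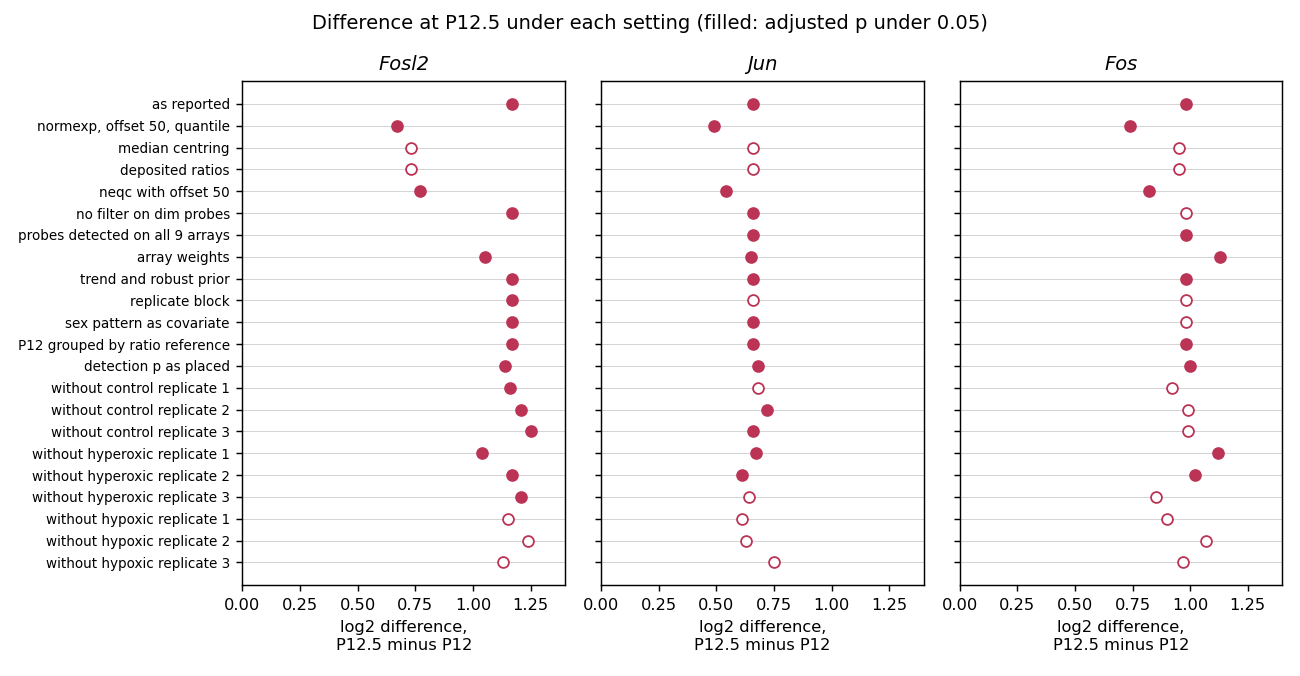
Log2 difference, P12.5 minus P12, of Fosl2, Jun and Fos under each processing alternative and with each array left out, with filled points where the limma adjusted p is under 0.05. All values lie above 0, from 0.67 to 1.25 for Fosl2, 0.49 to 0.75 for Jun and 0.74 to 1.13 for Fos, while the fill changes between settings.

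The other Jun family genes did not pass. Junb, a weaker activator that can oppose Jun, read 5.65, 5.58 and 5.83 on the control arrays, 6.29, 5.23 and 5.78 on the hyperoxic arrays, and 5.91, 6.35 and 5.56 on the P12.5 arrays. The groups overlapped throughout, with hyperoxic 1 near the highest P12.5 array, and the difference was 0.21 ± 0.22 (adjusted p = 0.621, limma). A second Junb probe, 106370025, was detected on 0 arrays, at 4.33 to 4.67. Jund, a member known for steady expression in resting cells, read 6.07, 6.41 and 6.21 on the control arrays, 6.47, 6.04 and 6.28 on the hyperoxic arrays, and 6.67, 6.56 and 6.25 on the P12.5 arrays. Of the P12.5 arrays, 2 lay above all P12 arrays and the third lay among them, and the difference was 0.24 ± 0.13 (adjusted p = 0.332, limma).

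Atf3, a stress-induced relative of the ATF and CREB proteins that can pair with Jun, was detected on 1 of 9 arrays. That array was hypoxic 1, at a level of 5.03 with a detection p of 0.0487, and the levels over all arrays were 4.45 to 5.03. The mean was 4.84 ± 0.17 (SD, n = 3) at P12.5 and 4.57 ± 0.10 (SD, n = 6) at P12, both near the limit of detection, and Atf3 was not tested. Maff is a small Maf protein with a leucine zipper and no activation domain. Its tested probe read 6.44, 6.29 and 6.08 on the control arrays, 5.96, 5.91 and 6.01 on the hyperoxic arrays, and 6.16, 6.43 and 6.23 on the P12.5 arrays. By the doubted labels the hyperoxic arrays lay below all others and the P12.5 arrays lay among the controls. How many of all probes have this order was not counted. Against all P12 arrays the difference was 0.16 ± 0.13 (adjusted p = 0.544, limma). Between the P12 arrays outside the reference and the reference arrays, Maff differed by -0.01 ± 0.15. The second Maff probe, 5720286, was detected on 0 arrays, at 4.4 to 4.71. Of all 14 member probes, 6 were detected on 9 arrays, 1 on 8, 2 on 1 or 2 arrays and 5 on 0.

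Among the members that did not pass, matches to the searched letters were found in the promoters of Fosb, Junb, Jund, Atf3 and Maff. Fosb and Junb hold TGACG 60 and 106 bases before the start. Atf3 holds TGACG on the opposite strand 7 bases before the start, and Jund holds ACGTG on the opposite strand 83 and 74 bases before it. Of the 3 Maff promoters, that at chr15:79347270-79347569 holds TGACGTCA 29 bases before the start, with TGACG on both strands within it, and ACGTG on both strands 191 and 190 bases before the start. Another, at chr15:79348152-79348451, holds TGACATCA 45 bases before the start and TGACG on the opposite strand 122 bases before it. Fosl1 had no entry, so 8 of the 9 members were searched, and TGACTCA was found in none of the 8.

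**Figure D3:**
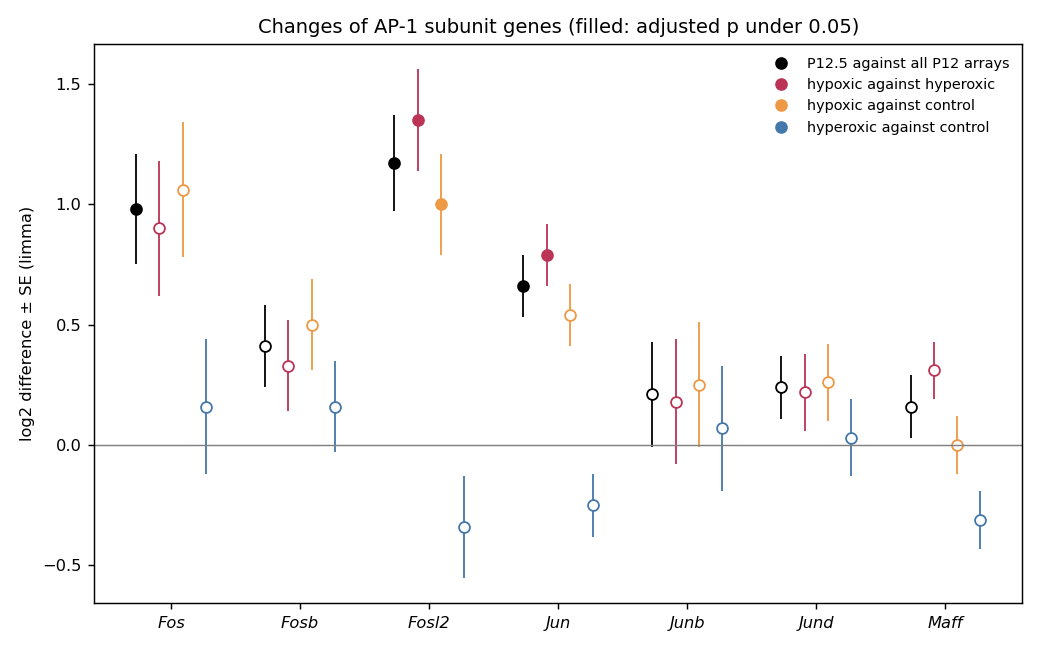
Log2 difference ± standard error from limma for the 7 tested AP-1 subunit genes in 4 comparisons, with filled points where the adjusted p is under 0.05. Fosl2 is filled in the 3 comparisons that involve P12.5, Jun in 2 of them and Fos in 1, and no member is filled for hyperoxic against control.

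The labelled groups were compared next, each with 3 arrays. If the labels hold, hypoxic against hyperoxic retinas ask what 12 h of room air brought after the same oxygen exposure. The labels of the arrays called hyperoxic are in doubt, as given above. In this comparison 2 of 7 members rose, where 1.13% of probes tested rose: Fosl2 by 1.35 ± 0.21 (adjusted p = 0.0189, limma) and Jun by 0.79 ± 0.13 (adjusted p = 0.0232). Fos differed by 0.90 ± 0.28 and did not pass (adjusted p = 0.131, limma), with the wide spread of the hyperoxic arrays given above. Maff differed by 0.31 ± 0.12, Fosb by 0.33 ± 0.19, Jund by 0.22 ± 0.16 and Junb by 0.18 ± 0.26, and their limma adjusted p-values were 0.226 to 0.741. At an unadjusted p under 0.05, 4 members were higher and 0 lower. In either direction 3678 of all 19620 probes tested had such a p.

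By the doubted labels, hypoxic against control retinas set the P12.5 retinas beside normal retinas of nearly the same age. Here 1 of 7 members rose, where 1.29% of probes tested rose. This was Fosl2, at 1.0 ± 0.21 with a limma adjusted p of 0.0492. Fos differed by 1.06 ± 0.28 (adjusted p = 0.0849, limma), Jun by 0.54 ± 0.13 (adjusted p = 0.0703, limma) and Fosb by 0.50 ± 0.19 (adjusted p = 0.191, limma), and none of them passed. Jund differed by 0.26 ± 0.16 and Junb by 0.25 ± 0.26, while Maff differed by 0.00 ± 0.12. At an unadjusted p under 0.05, 4 members were higher and 0 lower. In either direction 3921 of all 19620 probes tested had such a p. The comparisons with hyperoxic and with control retinas share the same P12.5 arrays.

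Without hyperoxic 1, which lies outside the control and hypoxic groups but enters the shared estimate of spread, 4 members rose against the control (Fos, Fosb, Fosl2 and Jun), and so did 9.16% of all probes tested. The count against the control was 0 without any 1 of the control or hypoxic arrays, where 0.0866% to 0.25% of all probes tested rose. It was 1, Fos in place of Fosl2, without hyperoxic 3, where 0.79% rose. The count against hyperoxic retinas was 0 without any 1 of the hypoxic arrays, where 0.224% to 0.387% of all probes rose. It was 1 (Fosl2) without hyperoxic 3, where 0.413% rose, and 3 (Fos, Fosl2 and Jun) without hyperoxic 1, where 5.23% rose.

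Hyperoxic against control retinas would, if the labels hold, ask what 5 days of high oxygen left at P12. No member changed by limma, as 0% of probes tested did, though 1873 probes had an unadjusted p under 0.05. Without hyperoxic 1, 2.9% of probes changed and still 0 of the 7 members. Fosl2 differed by -0.34 ± 0.21, Jun by -0.25 ± 0.13, Maff by -0.31 ± 0.12, Fos by 0.16 ± 0.28, Fosb by 0.16 ± 0.19, Junb by 0.07 ± 0.26 and Jund by 0.03 ± 0.16. Maff was the 1 member with an unadjusted p under 0.05, and its adjusted p was 0.509 by limma. Because the labels of these arrays are in doubt, no order of the members was read from this comparison.

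The P12 arrays were also grouped by whether they formed the reference of the deposited ratios, a grouping that comes from the deposited values and not from the labels. Against the 3 P12 arrays outside the reference, 4.22% of probes rose at P12.5, and so did Fosl2 (1.21 ± 0.23, adjusted p = 0.0213, limma), Fosb (0.63 ± 0.14, adjusted p = 0.0316) and Jun (0.56 ± 0.14, adjusted p = 0.0408). Fos differed by 0.73 ± 0.23 and did not pass (adjusted p = 0.0829, limma). Against the 3 reference arrays, 4.49% of probes rose, and so did Jun (0.77 ± 0.14, adjusted p = 0.00692, limma), Fos (1.23 ± 0.23, adjusted p = 0.00868) and Fosl2 (1.14 ± 0.23, adjusted p = 0.0139), while Fosb differed by 0.20 ± 0.14 (adjusted p = 0.446). Fosl2 and Jun thus passed against either set of P12 arrays.

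Between the P12 arrays outside the reference and the reference arrays, 4.41% of probes changed in either direction and 0 of the 7 members did. Fosb differed by -0.44 ± 0.14 (adjusted p = 0.0969, limma) and Fos by 0.51 ± 0.23 (adjusted p = 0.214, limma). They were the only members with an unadjusted p under 0.05, which 4584 of the 19626 probes tested had. Of the 11 endothelial marker genes tested, 9 were higher on all reference arrays than on the other P12 arrays. The share of all probes separated in this way was not counted, so this count only describes these genes. Flt1, a VEGF receptor, was lower (9.24 to 9.38 against 9.59 to 9.86), and Kdr, another, overlapped. Their summed log2 level was 11.92 to 11.99 on the reference arrays, 11.26 to 11.40 on the other P12 arrays and 11.26 to 11.31 at P12.5. The part of endothelial cells in the Fosb and Fos values was not tested.

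Whether members of a family differed in their change was tested directly on the difference between the 2 genes within each array, with P12.5 against all P12 arrays and an exact two-sided permutation test over 84 assignments, adjusted over the 6 pairs. The smallest p this design allows is 0.0238. Jun minus Jund was higher by 0.42 at P12.5 and Fosb minus Fosl2 was lower by 0.76, written as 0.42 and -0.76, each with an exact p of 0.0238 and an adjusted p of 0.0714. Jun minus Junb differed by 0.45 (exact p = 0.0952, adjusted 0.19) and Fos minus Fosb by 0.57 (exact p = 0.19, adjusted 0.285). Fos minus Fosl2 differed by -0.19 (exact p = 0.881) and Junb minus Jund by -0.03 (exact p = 0.905), both with an adjusted p of 0.905. None of the 6 pairs passed after adjustment. Jun minus Jund and Fosb minus Fosl2 were already at the smallest p, and could not pass unless more pairs came down to it. The test therefore could not decide whether the subunits that rose differed in their change from those that did not.

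Over the 9 arrays, which share the difference between the ages, Jun correlated with Fosl2 at r = 0.79, with Jund at 0.75 and with Fos at 0.73, while Fos and Fosl2 correlated at 0.56 and Junb and Jund at 0.72. These are descriptions over 9 arrays. Among all tested genes those most like Fosl2 over the 9 arrays were Gys1, muscle glycogen synthase (r = 0.984), Ak4, a mitochondrial adenylate kinase (r = 0.982), and Ptprn2 (r = 0.979). Gys1 rose at P12.5 by 1.04 ± 0.14 and Ak4 by 1.07 ± 0.21, with limma adjusted p-values of 0.00469 and 0.026. Ptprn2 differed by 0.74 ± 0.18 (adjusted p = 0.0531, limma). Genes named here were picked by correlation over the same 9 arrays, so their changes between the ages are not a separate result. Most like Fos were H1f8, an oocyte linker histone (r = 0.954), which rose by 1.05 ± 0.16, and Galnt1 (r = 0.953) and Virma (r = 0.944), which did not pass. Most like Jun were 2310022B05Rik (r = 0.987), Ap1g1 (r = 0.983) and Ptprf (r = 0.964), at differences of 0.42 ± 0.11, 0.19 ± 0.09 and 0.32 ± 0.09 that did not pass. Despite its symbol, Ap1g1 encodes a subunit of the clathrin adaptor complex AP-1 and not a transcription factor.

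**Figure D4:**
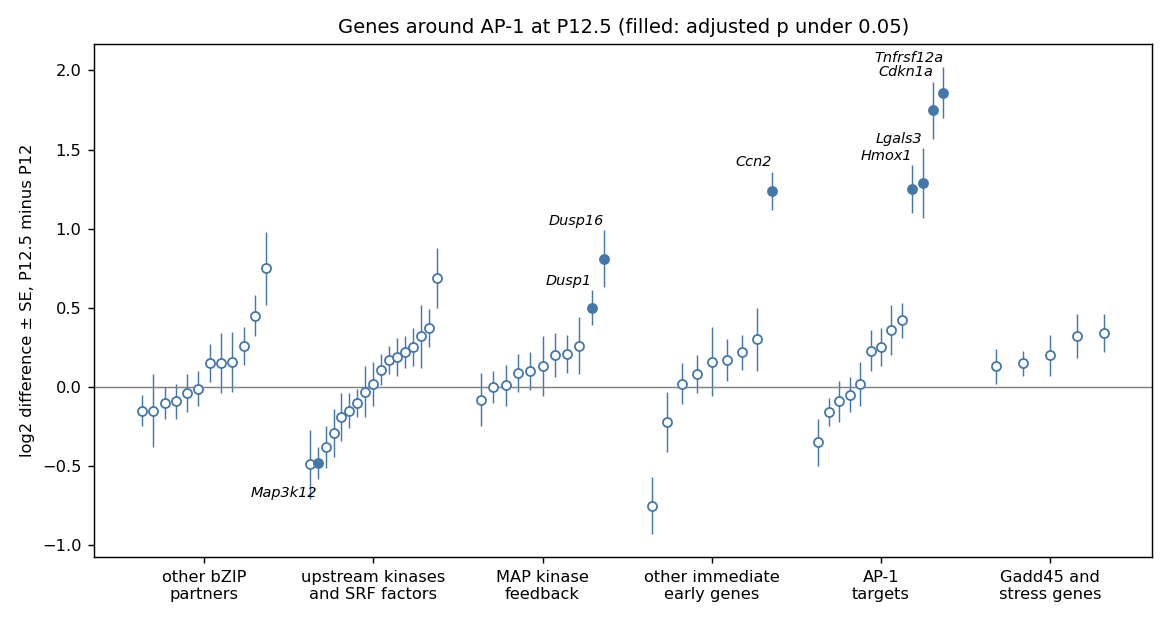
Log2 difference ± standard error from limma, P12.5 minus P12, for each tested gene of 6 lists around AP-1, ordered within a list, with filled points where the adjusted p is under 0.05. The 4 filled AP-1 targets and Ccn2 lie above 1, Dusp1 and Dusp16 at 0.50 and 0.81, and Map3k12 is the 1 filled gene below 0.

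The kinases that feed AP-1 and the serum response factor genes that drive Fos passed the test in 1 case. Of 22 listed genes 17 were tested, 0 rose, 1 fell and 16 did not pass, beside the 1.79% of all probes that rose and 1.45% that fell. The median was 0.02, as over all probes, with members on both sides. Beside 4066 of all 19620 probes with an unadjusted p under 0.05, the list had 2 higher and 3 lower. Besides Map3k12 these were Map2k1 at 0.69 ± 0.19, Elk4 at 0.37 ± 0.12, Map2k6 at -0.49 ± 0.22 and Mapk11 at -0.38 ± 0.13. The Map2k1 probe was detected on 4 arrays only, the P12.5 arrays and hyperoxic 2, and so entered the test through the group where it was high. The gene that fell was Map3k12, which encodes DLK, a neuronal kinase upstream of the c-Jun N-terminal kinases, by -0.48 ± 0.10 (adjusted p = 0.0368, limma). It read 9.85 to 10.14 at P12 and 9.53 to 9.59 at P12.5, with no overlap, but its call was lost under 10 of 21 alternatives. How many of all probes lay wholly lower at P12.5 was not counted. The c-Jun N-terminal kinase genes Mapk8, Mapk9 and Mapk10 differed by 0.02 ± 0.14, -0.10 ± 0.09 and -0.03 ± 0.16, and Srf by 0.19 ± 0.12. These are transcript levels, and kinase activity was not measured.

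Of the inhibitors that MAP kinase signalling induces against itself, 11 of 14 listed genes were tested, 2 rose, 0 fell and 9 did not pass, where 1.79% of all probes rose, and the median was 0.13. Dusp16, a phosphatase that favours the stress kinases, read 7.79 to 8.67 at P12 and 9.45, 9.12 and 9.04 at P12.5, a difference of 0.81 ± 0.18 (adjusted p = 0.0389, limma). Dusp1, an immediate early gene itself and a phosphatase of all 3 MAP kinase classes, read 8.68 to 9.11 at P12 and 9.30, 9.33 and 9.40 at P12.5, a difference of 0.50 ± 0.11 (adjusted p = 0.0424, limma). Neither overlapped between the ages, where 6.91% of probes tested had all P12.5 arrays above all P12 arrays. Each of the 2 lost its call under 12 of 21 alternatives. Dusp6, the phosphatase that follows ERK signalling, differed by 0.26 ± 0.18 and did not pass.

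Of the other immediate early genes 9 of 21 listed were tested, 1 rose, 0 fell and 8 did not pass, where 1.79% of all probes rose, and the median was 0.16. The gene that rose was Ccn2, a matricellular protein gene, at 7.40 to 7.92 at P12 and 9.05, 8.80 and 8.89 at P12.5, a difference of 1.24 ± 0.12 (adjusted p = 0.000665, limma) that passed under all 21 alternatives. Egr1, a zinc finger gene often induced together with Fos, differed by -0.22 ± 0.19, and its highest array was hyperoxic 1 at 10.45. Nr4a2, an orphan nuclear receptor gene of the same class, read 6.17 to 7.12 at P12 and 5.95, 5.97 and 5.55 at P12.5. The P12.5 arrays thus lay below every P12 array, a pattern not counted over all probes. The Nr4a2 difference of -0.75 ± 0.18 missed the threshold (adjusted p = 0.0525, limma). The activity-regulated gene Arc differed by 0.02 ± 0.13 and Zfp36, which encodes an mRNA-destabilising protein, by 0.08 ± 0.12. The difference between these changes and that of Fos was not tested.

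Of 12 tested genes among 19 other basic leucine zipper partners, 0 rose and 0 fell by limma, with a median of 0.07. Beside 4066 of all 19620 probes with an unadjusted p under 0.05, 2 of the 12 were higher and 0 lower. These 2 were Cebpb, at 0.75 ± 0.23 (adjusted p = 0.103, limma), and Atf4, at 0.45 ± 0.13 (adjusted p = 0.0868). Nrl, the rod-specific Maf relative, differed by -0.15 ± 0.10 and Jdp2, a repressor that pairs with Jun, by -0.01 ± 0.11. Of the 10 Gadd45 and other stress genes of the Jun pathway 5 were tested and 0 passed by limma, with 2 higher at an unadjusted p under 0.05 and a median of 0.20. These were Ddit3, at 0.32 ± 0.14, and Gadd45b, whose probe was detected on the 3 P12.5 arrays only and so entered the test through the group where it was high.

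Genes known as AP-1 targets in other settings had 13 of 26 tested, of which 4 rose, 0 fell and 9 did not pass, where 1.79% of all probes rose. At an unadjusted p under 0.05, 7 were higher and 1 lower, beside 4066 of all 19620 probes tested, and the median was 0.25. Tnfrsf12a, the receptor of the cytokine TWEAK, read 5.48 to 6.00 at P12 and 8.0, 7.43 and 7.47 at P12.5, a difference of 1.86 ± 0.16 (adjusted p = 0.000238, limma). Cdkn1a, the cell cycle inhibitor p21, read 6.84 to 7.61 at P12 and 8.91, 8.91 and 8.97 at P12.5, a difference of 1.75 ± 0.18 (adjusted p = 0.00131, limma). Hmox1, the heme oxygenase, read 5.55 to 6.18 at P12 and 7.26, 6.84 and 7.09 at P12.5, a difference of 1.25 ± 0.15 (adjusted p = 0.00211, limma). The ages did not overlap in any of these genes, where 6.91% of probes tested had all P12.5 arrays above all P12 arrays. All 3 genes passed under all 21 alternatives. As background, Cdkn1a is also a p53 target and Hmox1 a target of NRF2.

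Lgals3, galectin-3, read 4.97 to 6.18 at P12 and 7.10, 6.95 and 6.79 at P12.5, a difference of 1.29 ± 0.22 (adjusted p = 0.016, limma) whose call was lost under 6 of 20 alternatives. The cyclin gene Ccnd1 differed by 0.42 ± 0.11 (adjusted p = 0.0711, limma), and Cd44, Timp1 and Mmp9, an adhesion receptor, a protease inhibitor and a matrix protease, by 0.25 ± 0.12, -0.05 ± 0.11 and -0.16 ± 0.09. The matrix protease gene Mmp10 differed by -0.09 ± 0.13 and did not pass.

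Hyperoxic 1 touched these counts. Without it 5 of the 13 targets, 2 of the 5 Gadd45 and stress genes, 1 of the 12 partners and 1 of the 17 kinase and serum response genes rose, and 2 kinase genes and 1 other immediate early gene fell. Of all probes 4.49% rose and 4.84% fell without it. The 2 feedback inhibitors passed without hyperoxic 1 and without hyperoxic 2, where 4.49% and 3.89% of all probes rose. Of the 11 inhibitors 0 passed without any other 1 array, where 0.336% to 1.34% of all probes rose. With arrays centred on their medians only, the targets had 3 higher and 0 lower, the other immediate early genes 1 higher, and the other 4 lists 0 in either direction. With that centring 0.168% of all probes were higher and 0% lower.

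Markers of cell types were set beside the members' rise. In this comparison 1.79% of all probes tested rose, 1.45% fell and 4066 of 19620 had an unadjusted p under 0.05. Microglia and macrophage markers had 8 of 14 genes tested, 0 of which passed by limma (1 higher and 1 lower at an unadjusted p under 0.05), and a summed log2 level of 9.15 to 9.85 at P12 and 9.40 to 9.58 at P12.5. The astrocyte gene Gfap, which also marks reactive Müller glia, rose by 0.58 ± 0.13 (adjusted p = 0.0436, limma), 1 of 4 astrocyte genes tested. Müller glia had 11 of 12 tested with 0 higher and 2 lower, Aqp4 at -0.62 ± 0.11 and Clu at -0.46 ± 0.10. At an unadjusted p under 0.05, 3 were higher and 4 lower. The 3 higher were Sox9, Car14 and Vim, at 0.31 ± 0.09, 0.36 ± 0.15 and 0.29 ± 0.10. Without hyperoxic 1, 2 Müller glia genes rose and 3 fell, where 4.49% of all probes rose and 4.84% fell. The summed level of the Müller glia genes was 14.04 to 14.23 at P12 and 14.08 to 14.12 at P12.5. Of the 9 rod genes tested 1 fell, Gnat1 by -0.50 ± 0.10, with a summed level of 16.47 to 16.62 at P12 and 16.35 to 16.44 at P12.5. Of 11 endothelial genes 1 fell, Slco1c1 by -1.46 ± 0.30, and of 6 pigment epithelium genes 3 fell (Pmel, Dct and Rdh5). The pigment epithelium count was 0 without any 1 control array, where 0.398% to 0.887% of all probes fell. Of 21 alternatives Rdh5 lost its call in 12, Dct, Pmel and Gfap in 11, Clu and Slco1c1 in 10, Gnat1 in 9 and Aqp4 in 6.

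Genes of lens crystallins and other lens proteins, some of which the retina also makes, differed widely between arrays. Their summed log2 level over 13 tested genes of 15 was 9.08 to 12.89 at P12, with hyperoxic 1 the highest, and 11.19 to 13.87 at P12.5. By limma 0 of the 13 passed (5 higher and 0 lower at an unadjusted p under 0.05), with a median of 1.76. Without hyperoxic 1 there were 11 higher and 0 lower, where 4.49% of all probes rose and 4.84% fell. The part of lens tissue in the rise of Fosl2, Fos and Jun was not tested. Hyperoxic 1, with more lens signal than 2 of the P12.5 arrays, had the lowest Fosl2 level of all arrays, where that probe was not detected. It had a Jun level of 6.98, below every P12.5 array, and the highest Fos level of the P12 arrays. That array stood apart in intensity and in the share of probes detected, as given above.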

How the data were processed

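Biotin-labelled cRNA of 9 retinal RNA samples was hybridised to Illumina arrays, per the labels' protocols. The deposited probe intensity is on a linear scale and, judged by its values, neither background-corrected nor normalized. Each detection p-value, named so per the file headers, was used with the array whose intensities it follows. The deposited value table holds a linear ratio per probe. For scanner software, genome build and scaling, the sources used here give nothing. The number of arrays limits the precision.

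The 27 probes reading 0 throughout were dropped from the 46640. Intensities were processed with neqc of limma 3.58.1 in R 4.3.3 (offset 16, quantile normalization), and the offset understates changes of dim probes. A probe was tested where some labelled group had a detection p under 0.05 on each of its arrays (19620 probes), with lmFit and eBayes, two-sided, with Benjamini-Hochberg adjustment at 0.05. P12.5 against all P12 arrays had 1 mean per age, and the labelled comparisons 1 mean per group. The most intense tested probe stood for a gene, and the script was tested on simulated data. Adjusted p-values of genes are those of limma.

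The platform annotation gave 32781 probes 1 symbol, 55 several and 13777 none. The text names all members, of each list up to 4 genes of lowest p among those that passed, for each member that rose the 3 genes of highest correlation, and further list genes chosen after their values were seen. Members and lists were chosen with earlier results of these data known. Arrays control 1, control 3 and hypoxic 2 had the female pattern of Xist and Eif2s3y, and sex was tried as a covariate. Replicate numbers did not pair the arrays: same-numbered arrays of control and hyperoxic groups had deviations correlated at -0.34 to -0.21. Mice were separate, so p-values measure the spread between mice. Promoters come from RefSeq (GRCm38.p6).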

Additional observations from a re-analysis of the deposited data

How the results depend on the processing

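The rises of Fosl2, Jun and Fos at P12.5 against all P12 arrays kept their sign under all alternatives run (limma adjusted p-values 0.000214 to 0.0959, 0.00232 to 0.179 and 0.000959 to 0.207), but the number of members called moved. The main counts were 3 against all P12 arrays, 2 against hyperoxic, 1 against control and 0 for hyperoxic against control. In the first 3 comparisons the count was 0 both after median centring and on the deposited ratios, where the median of all probes against P12 was 0.13 instead of 0.02. These settings called 0.0714% to 0.168% of all probes in either direction, beside 3.24%, 1.7% and 1.89% in the main runs. With a replicate block the counts were 1, 1 and 0, where 0.821%, 0.647% and 0.214% of all probes were called. The replicate numbers do not pair the arrays, and the limma adjusted p-values against all P12 arrays were 0.0219 (Fosl2), 0.0639 (Jun) and 0.0904 (Fos). With array weights the counts were 6 against hyperoxic, 4 against control and 2 for hyperoxic against control. The share of all probes called then rose to 43.9%, 21.5% and 31.7%. With probes detected on all 9 arrays, which leaves Fosl2 untested, the counts were 1 against hyperoxic and 2 against control (3.33% and 5.67% of all probes called). With sex as a covariate they were 1 against hyperoxic and 0 against control (0.688% and 0.0917%). Against control the count was 2 with normexp and offset 50 (3.09%), 2 with neqc and offset 50 (3.2%) and 0 with no filter on dim probes (0.605%). It was 3 with the reference arrays of the ratios in place of the control (9.49%). Leaving out 1 array gave 0 to 4, 0 to 3 and 0 to 4, and 0 for hyperoxic against control. Of the 6 pairs 0 passed under the settings that keep all 9 arrays (lowest adjusted exact permutation p 0.0714 to 0.143). There a pair at the smallest exact p could not pass by itself. Leaving out a hypoxic array leaves 28 assignments and a smallest exact p of 0.0714, so no pair could pass, and leaving out a P12 array leaves 56 and 0.0357, so these runs say nothing about stability. No other count of members moved by over 1.5 times, and the cause of these moves was not tested. Counts of the surrounding lists moved too. Of the feedback inhibitors 0 passed with no filter on dim probes, a replicate block, sex as a covariate, median centring or the deposited ratios. In these settings 0.168% to 1.03% of all probes rose. With array weights 2 kinase genes were higher and 4 lower, and 12 lens genes higher, where 10% of all probes rose and 9.27% fell. Without hyperoxic 1, 1 kinase gene was higher and 2 lower, and 11 lens genes higher (4.49% and 4.84% of all probes). Without hyperoxic 2, 2 kinase genes were higher and 1 lower (3.89% and 2.08%). Of the pigment epithelium genes 0 fell with those same settings that left 0 feedback inhibitors, where 0% to 0.601% of all probes fell.

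Signs turned for Junb against hyperoxic and for 5 members in hyperoxic against control, Jun only where the P12 arrays were regrouped by the ratio reference. With 1 array left out at a time, Junb against hyperoxic ran from -0.09 (without hyperoxic 2) to 0.44, with -0.03 without hypoxic 2. For hyperoxic against control after median centring and on the ratios, Jund was -0.07 and -0.06, Fos -0.05 and -0.05, Junb -0.05 and -0.05, and Fosb -0.03 and -0.02. Jund was -0.02 with sex as a covariate. With the P12 arrays regrouped by the ratio reference, Fosb was -0.44 and Jun 0.21. These compare the arrays outside the reference with the reference arrays, which are other sets than the labelled groups. The left-out ranges for hyperoxic against control were -0.07 to 0.15 for Jund, -0.14 to 0.52 for Fos, -0.19 to 0.34 for Junb and -0.04 to 0.35 for Fosb. Fos was -0.59 with array weights (adjusted p = 0.00773, limma). Using detection p-values as placed, chosen after seeing the data, moved no count by over 1.5 times. A slide or scan block could not be run, as the files name none. Probes under detection, such as those of Fosl1 and Atf3, have only a bound.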
